A study of Mus musculus with 4 samples.

Results

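The H2 genes are the major histocompatibility complex (MHC) genes of the mouse. They were taken here as the protein-coding genes of the mm9 annotation (GENCODE M1) whose symbol begins with H2-, which gave 36 of 22380 coding genes, all on chromosome 17. RIF1 binding to them was read from chromatin immunoprecipitation followed by sequencing (ChIP-seq) in primary splenic B cells. The Rif1FH group holds 2 samples from Rif1FH/FH mice, in which the endogenous RIF1 protein, a regulator of replication timing and of DNA break repair, carries a Flag and hemagglutinin (HA) tag at its N terminus. The Rif1WT group holds 2 samples from C57BL/6 (Rif1WT/WT) mice with untagged RIF1, as the negative control of the anti-HA precipitation. Cells of both groups were depleted of CD43-positive cells, cultured with 5 µg/ml lipopolysaccharide (LPS) and 5 ng/ml interleukin 4 (IL-4), and harvested 72 h after activation. Per the study's methods, the tagged line was also kept on a C57BL/6 background, and the age of the animals is not given in the sources used here.

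The analysed list holds the positions of 16332 genomic intervals, each retained by the authors when found in both Rif1FH samples. Sequencing depth is therefore unknown, no interval has a value in a single sample, and Rif1WT cells could not be compared with Rif1FH cells. The list was divided by width into 16043 narrow intervals (under 50 kb), called peaks below, and 289 wide intervals (50 kb or more), taken to be RIF1-associated domains. The study removed peaks that overlapped such domains, so that of 5051 coding genes overlapping a wide interval only 54 (1.07%) had a peak at the 5′ end as well. All values below are counts and positions without a test, since neither replicate values nor gene expression are in the list. The B cell identity of the samples could not be checked for the same reason.

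MHC class I molecules display peptides from inside the cell to CD8 T cells and to natural killer cells. MHC class II molecules, which B cells carry on their surface, display peptides from engulfed antigen to CD4 T cells, and this is how an activated B cell obtains T cell help. In the mouse the genes lie in a row, beginning with the class I gene H2-K1 and the class II genes, followed by genes of other kinds, then H2-D1 and the Q, T and M groups of class I genes. The Q, T and M groups are mostly nonclassical, with narrower tissue expression and more specialised ligands than H2-K1 and H2-D1.

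Most of the H2 genes lay in a single wide interval. The list gives no signal within an interval, so RIF1 binding at each gene could not be seen. Of the 36 genes, 26 (72.2%) overlapped a wide interval, and each of them lay inside it over its whole length. Among all coding genes, 22.6% overlapped a wide interval. The 26 genes do not give 26 observations, because all of them lay in the same interval, on chromosome 17 from 31626001 to 36468000. At 4842 kb it was the widest of the 289, ahead of the second at 4806 kb and far above the median of 576 kb. It held 212 coding genes, of which the H2 genes made up 12.3%. The 26 genes were spread between its middle and its distal end. The first H2 gene started 2450 kb inside the proximal end, whereas the last one inside ended 4.90 kb before the distal end.

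**Figure D1:**
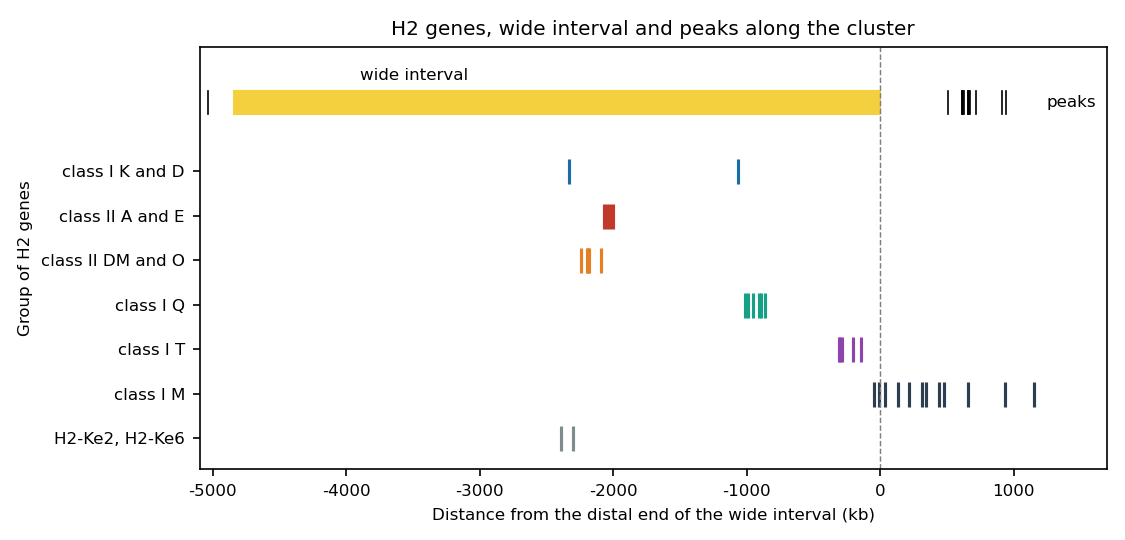
The 36 H2 coding genes by group (vertical marks at the 5′ end), the wide interval (yellow bar) and peaks (black marks), against the distance from the distal end of the wide interval in kb. The K, D, Q, T and class II genes lay inside it, and 10 of the 12 M genes lay beyond its end.

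The groups differed in where they lay. Both classical class I genes, H2-K1 (34132962 to 34137278) and H2-D1 (35399675 to 35404444), were inside the wide interval, at 2331 and 1068 kb from its distal end. So were all 4 genes of the class II A and E chains, namely H2-Ab1 (34400154 to 34406363), H2-Aa (34406276 to 34424772), H2-Eb1 (34442828 to 34453144) and H2-Eb2 (34462610 to 34477174). The A chains form a peptide-presenting heterodimer, whereas the E alpha gene, H2-Ea-ps, is a pseudogene in this annotation. All 5 genes of the nonclassical class II chains were inside as well. H2-DMa, H2-DMb1 and H2-DMb2 encode the DM chains that load peptides onto class II molecules, and H2-Oa and H2-Ob encode DO, which modulates DM. The 6 Q genes and the 5 T genes completed the class I genes that were fully inside as groups. The Q group includes 2 gene entries that share the symbol H2-Q2, and H2-Q10, which encodes a secreted class I molecule of liver. The T group includes H2-T23, which encodes Qa-1, a ligand of receptors on natural killer cells, and H2-T22, whose product is recognised by some gamma delta T cells. The remaining pair, H2-Ke2 and H2-Ke6, carries the H2 prefix only for its position and encodes a prefoldin subunit and a steroid dehydrogenase. Without this pair, 24 H2 genes were inside.

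Only the M group was divided, with 2 of 12 genes inside and 10 outside. The interval ended between neighbours of one subfamily. H2-M10.1 had its 5′ end 4.90 kb inside the distal end and H2-M10.2 44.6 kb inside, whereas H2-M10.3 had its 5′ end 37.4 kb beyond it. Nearly all wide intervals (287 of 289) began and ended at multiples of 2 kb, so that the end is known no better than that, and shortening all wide intervals by 50 kb at each end left H2-M10.1 and H2-M10.2 outside (24 genes inside). The M10 genes, with H2-M1, H2-M9 and H2-M11, are known for expression in the vomeronasal organ rather than in lymphoid cells.

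Spaces of over 200 kb without an H2 gene divided the cluster into 5 blocks. The first ran from H2-Ke2 to H2-Eb2 over 401 kb, with 12 H2 genes and 16 other coding genes between them. A space of 922 kb with 70 other coding genes, the class III region, separated it from the second, which ran from H2-D1 to H2-Q10 over 212 kb and held 7 H2 genes and 0 others. After 531 kb with 27 other coding genes, the third ran from H2-T24 to H2-M5 over 984 kb, with 15 H2 genes and 20 others. H2-M3 and H2-M2 stood alone. The wide interval thus covered the first and second blocks and the spaces after them without a break, and ended within the third.

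To show the starts of genes that lay in the wide interval, the promoters of H2-K1 and of 3 class II genes are given, from 250 bases before to 50 bases from the annotated 5′ end on, read from the mm9 reference sequence in the direction of the gene. Capitals mark matches to 5 motifs that were searched on both strands. These were CTGATTGG (the Y box of MHC promoters), CCAAT (the CCAAT box, whose reverse complement is part of the Y box), TGACGNNA (X2 box or cAMP response element), GGGATTCCC (an NF-kappaB site, as in enhancer A of class I genes) and TTTCNNTTT (interferon response element). The positions were chr17:34137229-34137528, minus strand, chr17:34399904-34400203, plus strand, chr17:34424723-34425022, minus strand, and chr17:34442578-34442877, plus strand.
H2-K1: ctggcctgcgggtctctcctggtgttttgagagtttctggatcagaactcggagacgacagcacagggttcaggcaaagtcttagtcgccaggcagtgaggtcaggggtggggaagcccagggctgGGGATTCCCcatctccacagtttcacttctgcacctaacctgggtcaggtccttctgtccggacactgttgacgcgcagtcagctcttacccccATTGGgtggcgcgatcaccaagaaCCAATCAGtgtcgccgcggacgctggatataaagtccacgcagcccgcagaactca
H2-Ab1: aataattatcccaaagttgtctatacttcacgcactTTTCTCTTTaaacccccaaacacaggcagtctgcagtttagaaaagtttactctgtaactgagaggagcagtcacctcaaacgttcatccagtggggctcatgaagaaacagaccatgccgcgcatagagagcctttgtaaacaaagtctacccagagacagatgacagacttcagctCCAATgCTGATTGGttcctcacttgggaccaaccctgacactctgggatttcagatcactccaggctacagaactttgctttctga
H2-Aa: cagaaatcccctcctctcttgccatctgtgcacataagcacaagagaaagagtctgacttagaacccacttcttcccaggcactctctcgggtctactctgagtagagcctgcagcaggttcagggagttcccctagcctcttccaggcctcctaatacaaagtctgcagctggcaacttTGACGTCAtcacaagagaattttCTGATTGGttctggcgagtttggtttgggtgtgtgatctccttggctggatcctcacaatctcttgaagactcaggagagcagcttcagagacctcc
H2-Eb1: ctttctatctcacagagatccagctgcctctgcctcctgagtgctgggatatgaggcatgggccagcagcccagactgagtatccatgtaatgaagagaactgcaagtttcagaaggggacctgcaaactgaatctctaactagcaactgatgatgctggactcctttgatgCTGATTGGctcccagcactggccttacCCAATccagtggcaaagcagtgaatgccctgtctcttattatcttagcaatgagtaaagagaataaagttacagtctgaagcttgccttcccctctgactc

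All of these held the Y box letters. In H2-Ab1 they stood at -30 to -23 from the 5′ end, in H2-Aa at -47 to -40 and in H2-Eb1 at -78 to -71. In H2-K1 they lay on the other strand and ran across the annotated 5′ end (-6 to 2), and the NF-kappaB letters stood at -124 to -116. Motif positions have no 0, whereas positions of peaks and exons below count the 5′ end as 0. H2-Aa also held TGACGNNA at -70 to -63, where the letters read alike on both strands.

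Of the 10 H2 genes beyond the wide interval, 8 (80.0%) had no RIF1 interval, beside 52.3% of all coding genes outside wide intervals. A window reaching 1 kb up- and downstream of the 5′ end met a peak in 2 of 36 H2 genes (5.56%), against 31.8% of all coding genes, and the gene itself met a peak in the same number, against 35.8% of all coding genes. Because peaks overlapping domains were removed, these shares are low by construction. Over genes that no wide interval touched, 2 of 10 H2 genes had a peak at the 5′ end and 2 over the gene. The shares over all coding genes outside wide intervals were 40.8% at the 5′ end and 45.8% over the gene. The H2 genes with a peak were H2-M3 and H2-M5. With 10 genes, several of them close copies of each other, a difference from the background was not tested.

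**Figure D2:**
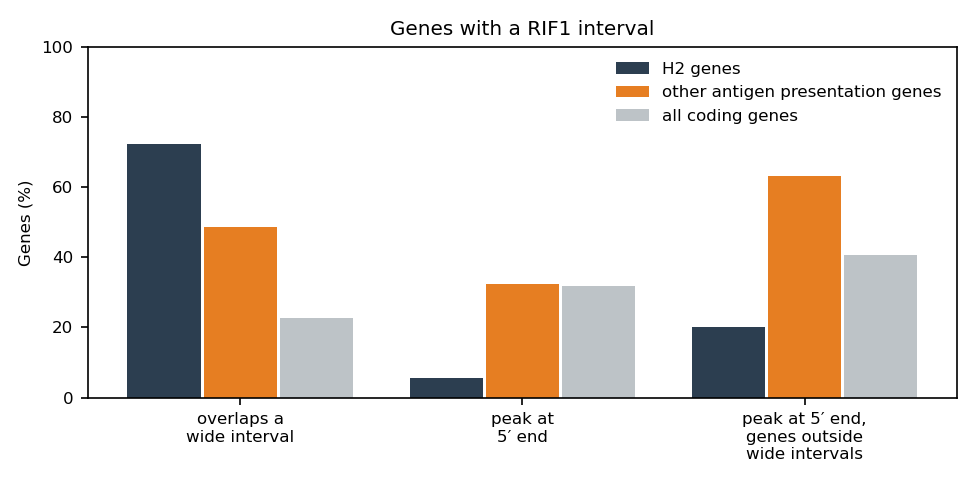
Percent of genes that overlapped a wide interval, that had a peak within 1 kb of the 5′ end, and that had such a peak among genes outside wide intervals, for the H2 genes (n = 36, and 10 outside), 37 other genes of antigen presentation (19 outside) and all coding genes (n = 22380, and 17326 outside). The H2 bars stand for 26 of 36, 2 of 36 and 2 of 10 genes.

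H2-M3 (ENSMUSG00000016206.6, chromosome 17, 37407165 to 37411429, plus strand) encodes a class I molecule that presents peptides with an N-formylated methionine, as bacteria and mitochondria make them. It carried a single peak of 4061 bp (37405666 to 37409726). Only 2.33% of all peaks were as wide, and the median peak was 1365 bp. The peak ran from -1499 to 2561 bp relative to the 5′ end. It thus covered 60.1% of the gene, with exons 1 to 5 of 8, and 1042 of its bases were exonic. Its midpoint lay in an exon, 531 bp past the 5′ end.

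H2-M5 (ENSMUSG00000024459.10, chromosome 17, 37121006 to 37126482, minus strand) had peaks on either side of its start. A peak of 560 bp (37125414 to 37125973) lay within the gene, 509 to 1068 bp past the 5′ end, with 370 bases in exons of coding transcripts. It was a narrow one, as 93.9% of peaks were at least as wide. A second peak of 1621 bp (37127198 to 37128818) ended 716 bp before the 5′ end and lay outside the gene. The annotated 5′ end is that of a transcript with a retained intron, and coding transcripts start 33 and 492 bp past it. None of these starts was in a peak, and the last lay just before the peak within the gene. With the annotated 5′ end and windows of 0.1 kb on each side, only H2-M3 was counted, against 28.6% of all coding genes.

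**Figure D3:**
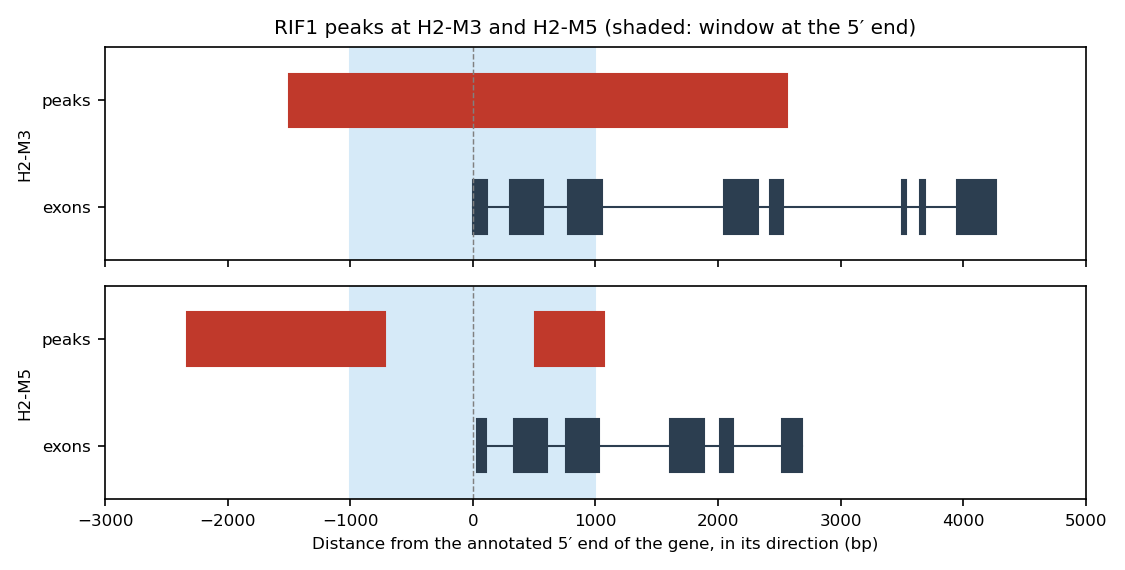
Peaks (red) and exons (dark boxes, of a coding transcript) of H2-M3 and H2-M5 against the distance in bp from the annotated 5′ end, in the direction of each gene. One peak of 4061 bp spans the start of H2-M3, and peaks of 560 and 1621 bp lie on either side of the start of H2-M5.

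The promoters of these genes are given in the same way, since they are the only H2 genes with a peak (chr17:37406915-37407214, plus strand, and chr17:37126433-37126732, minus strand).
H2-M3: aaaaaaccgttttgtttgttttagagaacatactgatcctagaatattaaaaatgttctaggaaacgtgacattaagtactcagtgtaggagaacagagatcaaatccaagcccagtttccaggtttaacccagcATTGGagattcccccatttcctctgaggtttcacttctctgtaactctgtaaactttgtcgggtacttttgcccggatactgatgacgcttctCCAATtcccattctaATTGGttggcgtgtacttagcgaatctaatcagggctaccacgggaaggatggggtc
H2-M5: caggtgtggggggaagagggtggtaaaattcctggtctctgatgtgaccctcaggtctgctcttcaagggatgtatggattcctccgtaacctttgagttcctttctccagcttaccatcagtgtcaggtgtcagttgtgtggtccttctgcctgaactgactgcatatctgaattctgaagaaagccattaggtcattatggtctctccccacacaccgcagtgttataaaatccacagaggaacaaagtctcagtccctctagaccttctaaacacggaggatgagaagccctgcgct

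The H2-M3 promoter held the letters CCAAT in 3 places, at -115 to -111 and -7 to -3 on the strand opposite to the gene and at -22 to -18 on its own strand, and none of the other motifs. The H2-M5 promoter held none of the 5 motifs. For every promoter shown, a missing match says only that these exact letters are not in the window. Other forms of the same elements were not searched.

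Over all H2 genes, the Y box letters were in the promoter window of 16 of 36 (44.4%), against 4.54% of all coding genes. Of these 16 genes, 9 lay in the wide interval and 7 beyond it. The latter were H2-M10.3, H2-M10.4, H2-M11, H2-M9, H2-M1, H2-M10.5 and H2-M10.6, none of which had a peak. CCAAT was in 26 of 36 windows (72.2%, against 37.9% of all coding genes), and TTTCNNTTT in 9 (25.0%, against 10.9%). TGACGNNA was in 4 (11.1%, against 7.86%). GGGATTCCC was in 3 (8.33%, against 0.362%), which were H2-K1, H2-Q6 and H2-Q7. As the genes arose by duplication, their promoters are not independent of each other, and these shares describe the family only.

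Beyond the wide interval, the next interval of the list began 505 kb further on, at 36973017. Spaces of this length between neighbouring intervals were uncommon but not rare, as 898 of 16311 (5.51%) were at least as long, and the median was 37.8 kb. The space held 7 coding genes, all of them H2 genes, together with 20 pseudogenes. The nearest peak to the 5′ end lay 468 kb away for H2-M10.3, 374 kb for H2-M10.4, 289 kb for H2-M11, 193 kb for H2-M9, 164 kb for H2-M1, 63.2 kb for H2-M10.5 and 23.9 kb for H2-M10.6. The distances fell along the row because the nearest peak was the same one for all 7, at the far end of the space.

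The first peak after this space lay at the 5′ end of Trim26, which encodes a tripartite motif protein. From the end of the wide interval to the end of H2-M2, which is the last H2 gene, there were 12 peaks. Coding genes of this stretch were grouped by symbol, which was done after the values were seen. Among all coding genes outside wide intervals, 40.8% had a peak at the 5′ end, and a difference from this share was not tested. In this stretch, 1 of 5 Trim genes and 0 of 16 olfactory receptor genes had such a peak. Of 9 remaining genes, 6 had one, namely Rnf39, Ppp1r11, Znrd1, Znrd1as, Zfp57 and Gabbr1. H2-M5 stood among these, between 2410137M14Rik, which had no peak, and Zfp57. H2-M3 stood among olfactory receptor genes, between Olfr98 and Olfr99, neither of which had a peak. H2-M2 (37617796 to 37620497) followed Olfr109, and its 5′ end was 211 kb from the nearest peak, the one at H2-M3.

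**Figure D4:**
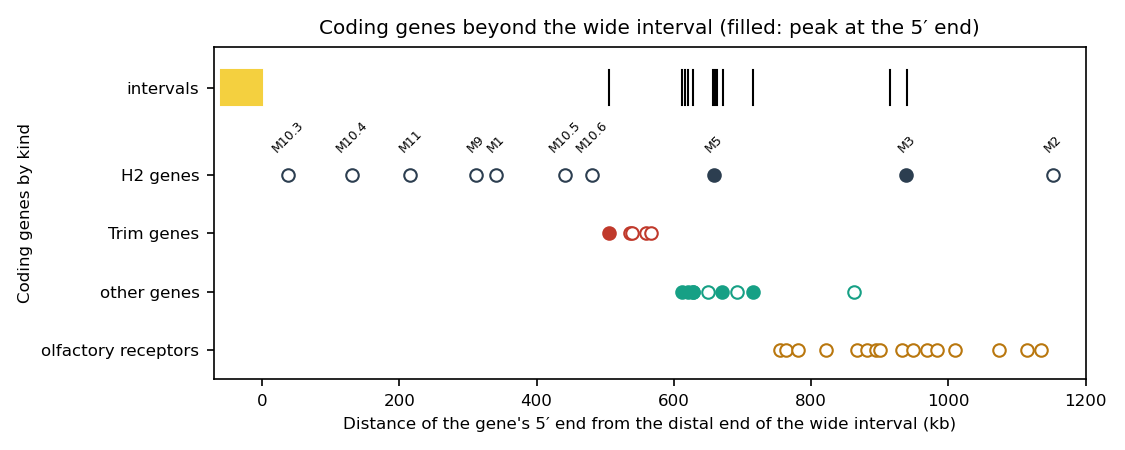
Coding genes from the distal end of the wide interval to H2-M2, by kind, with the 5′ end plotted as the distance from that end in kb, under the intervals of the list (yellow, wide interval, and black, peaks). Filled circles have a peak within 1 kb of the 5′ end. The first 7 H2 genes are open, and H2-M5 and H2-M3 are filled.

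Reads that align to several places were discarded in the study, and close copies such as the H2 genes can lose reads in that way. Unique sequence was therefore measured as the share of positions at which a word of 50 bases occurs once in the mm9 reference, on either strand. In the same windows around the 5′ ends, the median over H2 genes was 96.8%, against 100% over all coding genes. The lowest values were 42.3% for H2-Q6, 47.7% for H2-Q7, and 52.6% for H2-T23, followed by H2-T9 and by H2-T22 at 75.3%, all of them under the lowest decile of coding genes (80.5%). These 5 genes lay in the wide interval, whose listing gives no signal at single genes. For the 10 H2 genes outside, the windows were 90.8 to 100% unique. The 8 without a peak covered the same range, and H2-M3 and H2-M5 were at 96.5 and 91.8%. Over longer stretches the share was 87.2% in the wide interval, 78.9% in the space of 505 kb after it, and 88.1% from there to the end of H2-M2.

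The base composition of the 5′ ends divided the H2 genes in another way. CpG content was measured as the number of CpG dinucleotides over the number expected from the C and G content, in the same windows, and had a median of 0.47 over all coding genes. The classical class I genes H2-K1 (0.69) and H2-D1 (0.64) and the Q genes (0.49 to 0.67) were above this median. The class II A and E genes (0.14 to 0.28) and the DM and O genes (0.18 to 0.30) were below it, and the T genes ranged from 0.18 to 0.52. The genes inside the wide interval thus ran from CpG-rich to CpG-poor, from 0.14 to 0.69. Outside it, H2-M5 (0.43) and H2-M3 (0.35) had the highest CpG content of the 10, and the 8 genes without a peak were at 0.082 to 0.25. Among all coding genes outside wide intervals, the median was 0.64 where the 5′ end had a peak and 0.24 where it did not. The ranges overlapped, from 0.027 to 1.1 with a peak and from 0 to 1.2 without. A link between CpG content and peaks was not tested. GC content followed the same order, at 49.4% for H2-M5, 47.3% for H2-M3 and 43.1 to 46.0% for the 8 others.

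**Figure D5:**
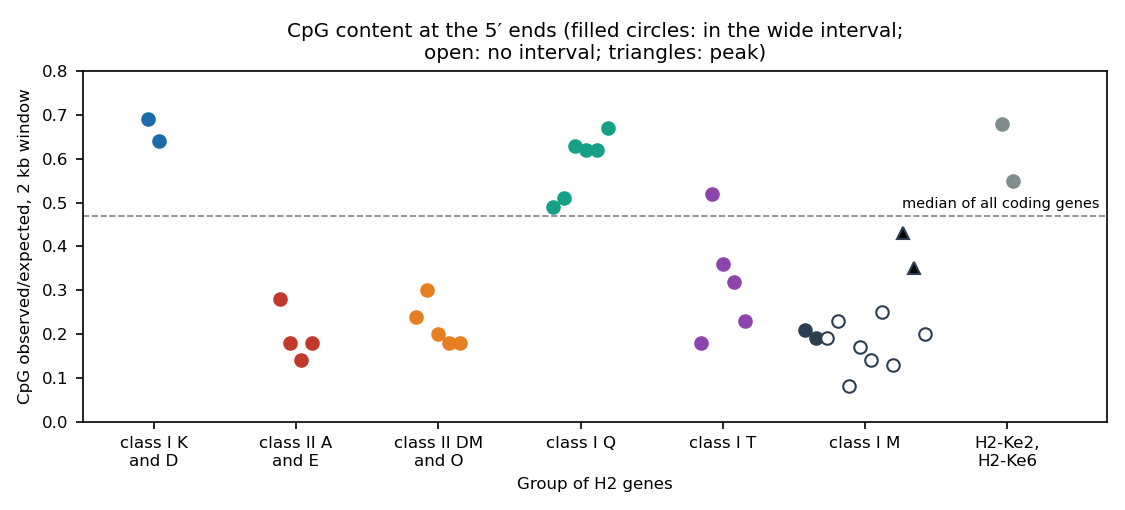
CpG observed over expected in windows reaching 1 kb up- and downstream of the 5′ end for the 36 H2 genes by group. Filled circles lie in the wide interval, open circles have no interval, and black triangles (H2-M5 at 0.43 and H2-M3 at 0.35) have a peak, with the median of all coding genes at 0.47 as a dashed line.

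H2 genes of other biotypes were not counted above. Of 6 such genes, 5 lay in the wide interval, namely the pseudogenes H2-K2 and H2-Ea-ps, the processed transcript H2-Q8, and H2-Bl and H2-T10, which are annotated as polymorphic pseudogenes. The pseudogene H2-M6-ps lay outside, with its 5′ end 11.7 kb from the nearest peak and no peak over it.

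A broad list of 37 further genes, called genes of antigen presentation here, was examined for the same measures. The name stands for the list and not for a role of each gene. It held 15 genes of the class I side, 9 of the class II side, 6 regulators of both and 7 class I-like chains. Of the 37 genes, 18 (48.6%) overlapped a wide interval and 12 (32.4%) had a peak at the 5′ end. The shares of all coding genes were 22.6 and 31.8%. The 18 genes lay in 12 different wide intervals, as some of them are neighbours, and are not as many observations. Outside wide intervals, 12 of 19 (63.2%) had a peak at the 5′ end, beside 40.8%. On the class I side, 11 of 15 overlapped a wide interval. Tap1 and Tap2, which pump peptides into the endoplasmic reticulum, Tapbp (tapasin, which holds class I molecules at this pump) and the immunoproteasome subunits Psmb8 and Psmb9 shared the interval of the H2 genes. B2m, which encodes the light chain of class I molecules, lay in another, of 560 kb on chromosome 2 (121940001 to 122500000). Tapbpl, Psme1, Psme2 and Calr also lay in wide intervals, with Psme1 and Psme2 in the same one. Erap1 met one only over 2.68 kb of its 52.7 kb. Psmb10, Canx and Pdia3 had a peak at the 5′ end. Nlrc5, which encodes the transactivator of class I genes but is a noncoding RNA in this annotation, had neither, with the nearest peak 13.3 kb from its 5′ end.

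On the class II side, 3 of 9 genes overlapped a wide interval, beside 22.6% of all coding genes. They included Ciita, the master transactivator of class II genes, in an interval of 640 kb on chromosome 16, and Rfxank, a subunit of the RFX complex that binds the X box, which shared its interval with Ifi30. The other RFX subunit genes had peaks at the 5′ end instead, with 2 peaks at Rfx5 and 1 at Rfxap. Ctss, whose cathepsin degrades the invariant chain, and Lgmn each had 1 peak at the 5′ end. Cd74, which encodes the invariant chain itself, had neither kind of interval, and the nearest peak was 44.5 kb from its 5′ end. March1, a ubiquitin ligase for class II molecules, is 854 kb long in this annotation. It had 12 peaks over the gene and none at the annotated 5′ end, which was 670 kb from the nearest peak. Of 6 regulators that act on both classes, 0 overlapped a wide interval and 4 had a peak at the 5′ end, namely Creb1, Nfya, Irf1 and Irf2. Among all coding genes outside wide intervals, 40.8% had such a peak. Nfyc had a peak over the gene only. Of 7 class I-like chains encoded elsewhere, 4 (57.1%, Mr1, Fcgrt, Hfe and Azgp1) overlapped wide intervals, beside 22.6% of all coding genes. Cd1d1, which presents lipids to natural killer T cells, had 1 peak at the 5′ end. These sets of genes are small, and a difference from the shares over all coding genes was not tested.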

How the data were processed

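The authors deposited a single list of intervals with 3 columns, chromosome, start and end, which they combined from both Rif1FH samples. Per the labels and the methods of the study, reads were trimmed with Trim Galore 0.6.4 and aligned to mm9 with Bowtie 1.0.0, keeping reads with a unique position. Peaks were called per replicate with MACS2 2.2.6 and broad domains with EDD. Both were merged with bedtools 2.27.1 and kept where both replicates had them. The peak calling thresholds are not given in the sources used here.

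Intervals were divided at 50 kb. Positions count from 1 on mm9 (NCBIM37), and genes are those of GENCODE M1. An overlap of 1 bp sufficed, and windows reached 1 kb to each side of the gene's 5′ end. Unique words of 50 bases were counted over all chromosomes and unplaced sequence. Motifs were searched from 250 bases before to 50 bases from the 5′ end on. Overlaps and word counts were tested on simulated data. Python 3.11.15, numpy 2.4.6, pysam 0.24.0 and numba 0.67.0 were used. Depth per sample is unknown, and no statistical test was made.

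The members, groups, gene list and motifs were chosen with earlier results of these data known. Named were H2 genes with a peak or outside wide intervals, those next to the end of the wide interval, the classical class I and class II genes, and listed genes of antigen presentation with an interval. Genes named for having none, such as Cd74, and the other genes beyond the wide interval were chosen after their values were seen.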

Additional observations from a re-analysis of the deposited data

How the results depend on the processing

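Of 27 comparisons under other settings, 23 kept the value within 1.5 times. The number of H2 genes in a wide interval was 24 of 36 with wide intervals shortened by 50 kb at each end. It was also 24 in the smaller set without H2-Ke2 and H2-Ke6. With genes of every biotype it was 31 of 42, a share of 73.8% beside 72.2% in the main setting. The number with a peak at the 5′ end fell to 1 with windows of 0.1 kb, which left H2-M3, and was 28 when wide intervals were counted too. The number overlapping a peak was likewise 28 with wide intervals and 1 with peaks at or above the median width, which leave out the 560 bp peak of H2-M5. These changes follow from how the settings are built. With both kinds of interval counted, 8 of 36 H2 genes (22.2%) had none, beside 40.5% of all coding genes. That is a smaller difference than for wide intervals alone (72.2 against 22.6%). For peaks at the 5′ end, the share of all coding genes was 28.6% with windows of 0.1 kb and 34.8% with 5 kb. It is not given for the remaining settings. The median share of unique sequence ran from 94.2% with words of 36 bases to 100% with words of 100. Leaving out unplaced sequence, an alternative chosen after seeing the data, gave 96.8%. Genes of antigen presentation with a peak at the 5′ end ran from 10 to 14, and those in a wide interval from 16 to 18. No paired analysis was possible because positions were merged over both replicates, and for the same reason no replicate could be left out. Depth is unknown, so that a gene without a peak is one without a listed peak.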
